A study of Mus musculus with 19 samples.

Results

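The genes described here encode the machinery by which cells display peptides to T cells: the major histocompatibility complex (MHC) proteins, called H2 in the mouse, and the proteins that load them. They comprised all 40 genes of the deposited expression table whose symbol starts with H2-, together with 10 genes added by name (B2m, Tap1, Tap2, Tapbp, Psmb8, Psmb9, Psmb10, Cd74, Ciita and Nlrc5), so 50 of the 18666 genes listed. Of these 50 genes, 25 reached at least 1 FPKM (sequenced fragments scaled to transcript length and library depth) in at least 4 of the 19 libraries and were tested, among 11996 genes tested in all. Another 22 genes did not reach 1 FPKM in any library, and 3 did so in fewer than 4 libraries. The libraries were made from sensory neurons of the dorsal root ganglia (DRG), which carry touch, pain and itch signals from the skin, sorted by flow cytometry from male C57BL/6 mice aged 2 months with genetically labelled MrgprA3+ neurons. MrgprA3+ neurons, a class of itch-sensing neurons, were collected by their green fluorescence, and MrgprA3- neurons by a gate on cells of like shape. Allergic contact dermatitis (ACD) was produced with the contact allergen squaric acid dibutylester (SADBE) in 5 mice, and another 5 mice served as controls. The groups were MrgprA3+ neurons of ACD mice (4 libraries, since no replicate 3 is among the 19 samples), MrgprA3- neurons of ACD mice (5 libraries), MrgprA3+ neurons of control mice (5 libraries) and MrgprA3- neurons of control mice (5 libraries). Both populations were sorted from every animal, each from its ganglia supplying the treated skin. The labels do not say which promoter or allele drives the fluorescent label.

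MHC class I molecules are a heavy chain paired with beta-2-microglobulin and are found on nearly all nucleated cells, where they show peptides cut from cytosolic proteins by the proteasome. TAP1 and TAP2 pump these peptides into the endoplasmic reticulum, and tapasin holds the empty class I molecule beside the pump. Class II molecules are an alpha and a beta chain made chiefly by dendritic cells, macrophages and B cells, and show peptides from endocytosed proteins. The invariant chain CD74 blocks their groove until the H2-DM heterodimer exchanges its remnant for peptide. NLRC5 drives transcription of class I genes and CIITA that of class II genes, both through a conserved promoter module that includes a CCAAT sequence known as the Y box. Mature neurons are known for low surface class I, which interferon can raise.

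The label gene went with its labels. Mrgpra3 lay between 836 and 1079 FPKM in MrgprA3+ ACD libraries, against 14.0 to 23.9 FPKM in MrgprA3- ACD libraries, and between 948 and 1446 FPKM in MrgprA3+ control libraries, against 16.4 to 26.4 FPKM in MrgprA3- control libraries. Estimated depth ranged between 10.45 and 21.0 M fragments per library. MrgprA3+ libraries listed between 13448 and 14360 genes above 0, and MrgprA3- libraries between 15534 and 16163. MrgprA3+ libraries also scattered more: the standard deviation of a library's deviations from its group mean, over all tested genes on the log2 scale, was 0.398 to 0.536 in MrgprA3+ libraries and 0.205 to 0.263 in MrgprA3- libraries. The labels do not say that equal replicate numbers mark the same mouse, and p-values below measure the spread between libraries.

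Promoter sequences are shown for 4 genes on which the comparisons turn: the classical class I genes H2-D1 and H2-K1, which differed between the populations in opposite directions, the class II gene H2-Aa, and the nonclassical gene H2-M11. Each runs 5′ to 3′ on the gene's own strand, 250 bases before to 50 after the annotated start, from RefSeq on GRCm38.p6. Capitals mark the Y box (CCAAT on either strand) and, in H2-M11, also a match to the interferon-gamma element TTCNNNGAA. The H2-D1 window is chr17:35262844-35263143 on the plus strand, and the H2-K1 window chr17:34000284-34000583 on the minus strand (the downstream of 2 annotated starts). The H2-Aa window is chr17:34287774-34288073 on the minus strand, and the H2-M11 window chr17:36546825-36547124 on the plus strand.
H2-D1: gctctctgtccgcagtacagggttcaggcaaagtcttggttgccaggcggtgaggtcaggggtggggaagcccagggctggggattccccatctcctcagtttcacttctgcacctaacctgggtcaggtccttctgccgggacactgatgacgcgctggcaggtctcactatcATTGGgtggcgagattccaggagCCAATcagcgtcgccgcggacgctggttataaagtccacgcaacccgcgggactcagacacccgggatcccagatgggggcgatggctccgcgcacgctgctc
H2-K1: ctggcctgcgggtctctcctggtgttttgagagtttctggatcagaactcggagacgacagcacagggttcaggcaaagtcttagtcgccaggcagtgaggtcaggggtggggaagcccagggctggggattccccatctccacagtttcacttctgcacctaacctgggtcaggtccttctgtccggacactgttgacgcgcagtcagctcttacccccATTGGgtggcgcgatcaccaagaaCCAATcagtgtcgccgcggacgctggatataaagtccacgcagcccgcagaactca
H2-Aa: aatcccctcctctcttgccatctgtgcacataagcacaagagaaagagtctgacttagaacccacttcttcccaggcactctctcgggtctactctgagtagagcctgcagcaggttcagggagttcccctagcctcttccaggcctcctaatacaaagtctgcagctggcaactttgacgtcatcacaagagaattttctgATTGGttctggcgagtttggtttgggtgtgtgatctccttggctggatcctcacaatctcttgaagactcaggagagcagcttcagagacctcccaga
H2-M11: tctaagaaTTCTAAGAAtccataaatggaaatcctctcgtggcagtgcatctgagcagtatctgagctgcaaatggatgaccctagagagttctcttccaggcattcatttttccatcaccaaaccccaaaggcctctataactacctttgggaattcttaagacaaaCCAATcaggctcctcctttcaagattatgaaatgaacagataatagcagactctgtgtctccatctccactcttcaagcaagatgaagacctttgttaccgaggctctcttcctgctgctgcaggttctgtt
The H2-D1 and H2-K1 windows could be aligned over 253 bases and were identical at 222 of them (87.75%), and both hold a pair of Y boxes in opposite orientation. RefSeq promoters were used for 35 of the 50 genes, with 38 windows in all. Cd74 is not among them: windows on its chromosome were left out for these genes, but not from all mouse windows. A Y box lay in 32 of these 38 windows (84.2%), against 37.4% of all 32851 mouse promoter windows of that length. The interferon-stimulated element GAAANNGAAA lay in 3 of the 38 windows (7.89%, against 3.44% of all windows), and TTCNNNGAA in 4 (10.5%, against 8.30%), searched on both strands. B2m, H2-T22 and H2-T23 carried GAAANNGAAA, and H2-M11, H2-M3, H2-DMb2 and Psmb8 the TTCNNNGAA match. Tap1 and Psmb9 are transcribed away from each other, and their windows share 275 bases. These matches describe the sequence and say nothing of binding.

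The first comparison asked how MrgprA3+ neurons differ from other sensory neurons in these genes. MrgprA3+ neurons held more H2-D1 mRNA and less mRNA of H2-K1, B2m, Tapbp, Tap2, H2-M11, H2-Eb1, H2-Aa and Cd74 than MrgprA3- neurons in control mice. In ACD mice H2-D1 was again higher, and H2-M11, H2-T22 and Cd74 were lower. A gene was said to be higher or lower where its p-value, from limma on log2(FPKM + 1) with Benjamini-Hochberg adjustment over all genes tested, was below 0.05. In control mice 1 of the 25 genes was higher and 8 were lower, against 8.64% of all tested genes higher and 18.4% lower. In ACD mice 1 was higher and 3 were lower, against 6.84% of all tested genes higher and 15.2% lower. The median log2 difference over the 25 genes was -0.33 in control mice, against -0.14 over all tested genes, and -0.39 in ACD mice, against -0.12 over all tested genes. The balance of calls over all genes depended on the scaling: in ACD mice 821 genes were higher and 1826 lower, against 1178 higher and 1475 lower after median-ratio rescaling and 1190 higher and 1296 lower after quantile normalization. In control mice 1037 were higher and 2204 lower, against 1431 higher and 1723 lower after median-ratio rescaling and 1533 higher and 1529 lower after quantile normalization, which moved the median of all genes to 0.04. Of the 25 genes 1 was higher and 5 were lower in control mice under either rescaling, but they were not the same genes. The higher gene was H2-D1 after median-ratio rescaling and H2-M10.2 after quantile normalization. Median-ratio rescaling ended the calls of H2-K1, Tapbp and H2-Eb1, and quantile normalization those of H2-D1, Cd74, H2-Aa and H2-Eb1. No called gene changed direction. H2-M11, H2-Aa, Cd74 and H2-Q4 reached 1 FPKM in MrgprA3- libraries alone, so they could enter the test only through the population in which they are high. In bulk libraries fewer cells that express a gene and less of its RNA per cell cannot be told apart.

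**Figure D1:**
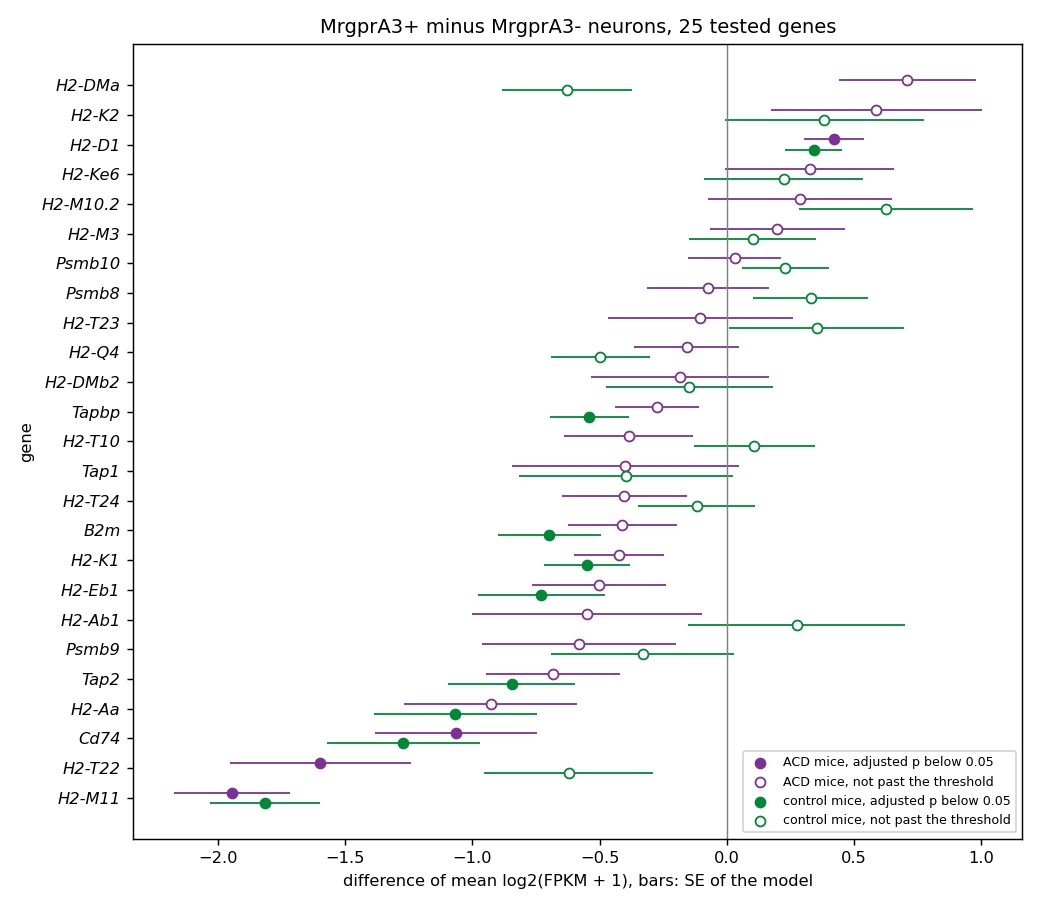
Difference of mean log2(FPKM + 1), MrgprA3+ minus MrgprA3- neurons, for the 25 tested genes in ACD mice (purple) and control mice (green), with the standard error of the model and filled symbols for an adjusted p below 0.05. H2-D1 lies to the right of 0 in both, at 0.42 in ACD mice and 0.34 in control mice, and H2-M11 farthest to the left, at -1.94 in ACD mice and -1.81 in control mice.

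Of the classical class I heavy chains, H2-D1 (gene ID 14964) was by far the most abundant gene of the set. Its levels were 689, 548, 550 and 660 FPKM in MrgprA3+ ACD libraries, against 466, 532, 416, 419 and 449 FPKM in MrgprA3- ACD libraries. In control mice they were 516, 617, 478, 715 and 616 FPKM in MrgprA3+ libraries, against 482, 468, 366, 539 and 461 FPKM in MrgprA3- libraries. Every MrgprA3+ ACD library lay above every MrgprA3- ACD library, while in control mice the ranges overlapped. The log2 difference was 0.42 (SE 0.12, adjusted p = 0.0119 by limma) in ACD mice and 0.34 (SE 0.11, adjusted p = 0.0251) in control mice. The call ended under quantile normalization in both (log2 difference 0.29, adjusted p = 0.0565 in ACD mice, and 0.20, adjusted p = 0.165 in control mice) and without single libraries: MrgprA3+ ACD replicate 1 (adjusted p = 0.0501) in ACD mice, and MrgprA3+ control replicate 2 (0.0533), MrgprA3+ control replicate 4 (0.0792) or MrgprA3- control replicate 3 (0.0940) in control mice. By mean FPKM, H2-D1 ranked 86 of 18666 genes in MrgprA3+ neurons of ACD mice and 116 in MrgprA3- neurons of ACD mice, and 86 in MrgprA3+ neurons of control mice and 111 in MrgprA3- neurons of control mice.

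H2-K1 (gene ID 14972), the other classical heavy chain of this strain, ran the other way. In ACD mice its levels were 47.6, 34.6, 33.0 and 52.5 FPKM in MrgprA3+ libraries, against 66.8, 67.7, 57.5, 42.8 and 47.2 FPKM in MrgprA3- libraries. In control mice they were 29.1, 47.0, 37.8, 36.0 and 52.0 FPKM in MrgprA3+ libraries, against 54.5, 53.4, 67.9, 51.7 and 66.1 FPKM in MrgprA3- libraries. The ranges overlapped in both, in control mice only through MrgprA3+ replicate 5. The log2 difference was -0.42 (SE 0.18, adjusted p = 0.0912 by limma) in ACD mice and -0.55 (SE 0.17, adjusted p = 0.0175) in control mice. Median-ratio rescaling of the libraries ended the call in control mice (log2 difference -0.44, adjusted p = 0.0623), as did leaving out MrgprA3+ control replicate 1 (adjusted p = 0.0561) or MrgprA3- control replicate 3 (0.0527), and in ACD mice H2-K1 passed without MrgprA3+ ACD replicate 5 (-0.54, adjusted p = 0.0389). Set against each other within a library, which no scaling factor per library can alter, H2-D1 stood at 12.6 to 16.7 times H2-K1 in MrgprA3+ ACD libraries and 6.97 to 9.79 times in MrgprA3- ACD libraries. In control mice the ratio was 11.9 to 19.9 in MrgprA3+ libraries and 5.39 to 10.4 in MrgprA3- libraries, so the populations did not overlap in either treatment; the ratio was looked at after the values were seen and is given with no test. Of the 50-base stretches of the GRCm38 transcripts, 12.8% of those of H2-D1 and 9.63% of those of H2-K1 also occur in another gene, so part of their reads could have been counted for a relative. H2-L, absent from the haplotype that C57BL/6 mice carry, was listed at 0 in 13 of 19 libraries and reached at most 0.34 FPKM.

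**Figure D2:**
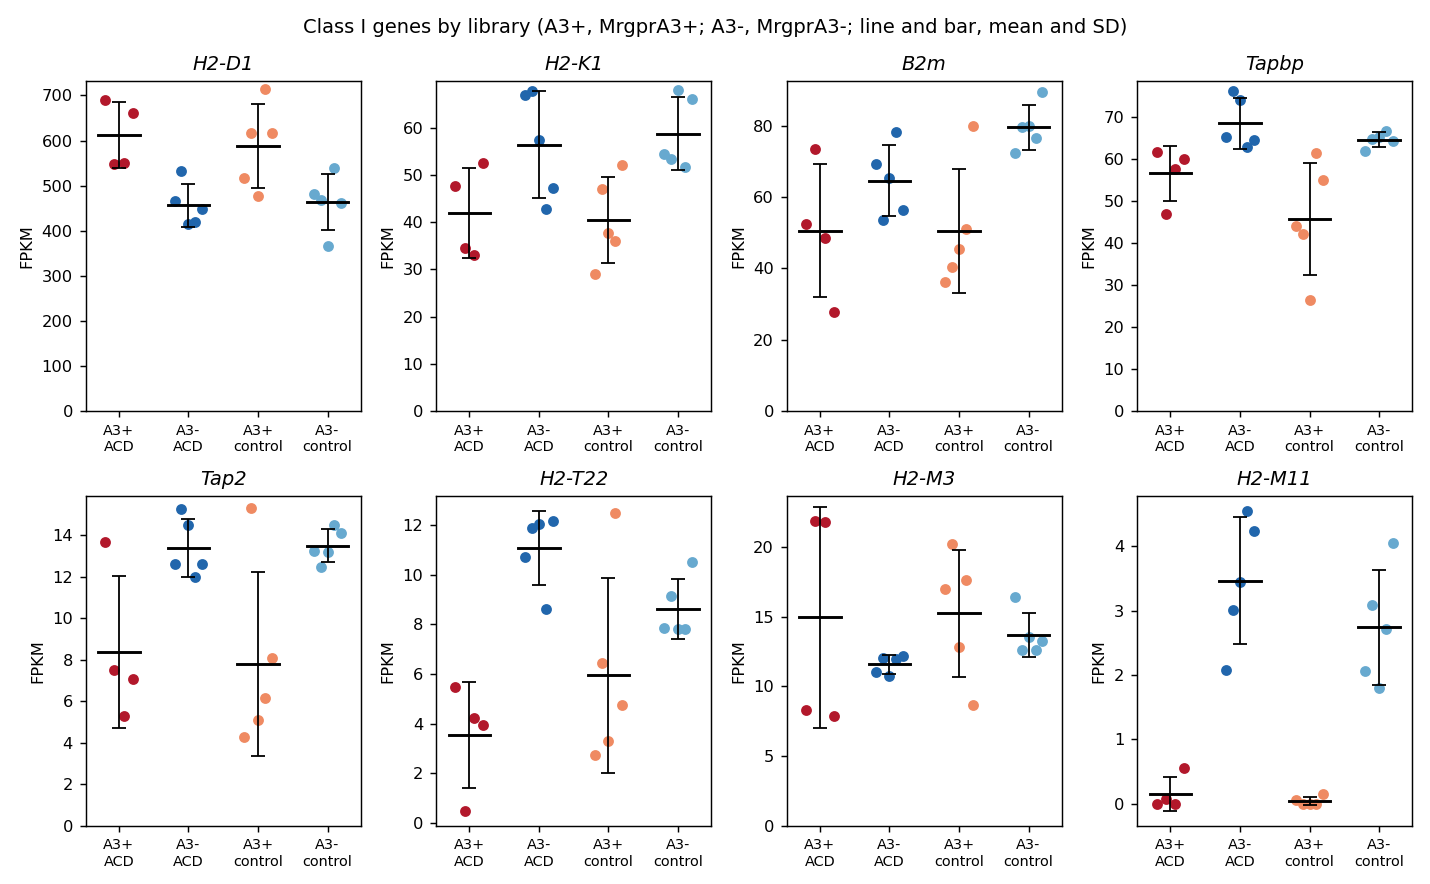
FPKM of 8 class I pathway genes in each library, with the mean and SD of each group; A3+ stands for MrgprA3+ and A3- for MrgprA3-. H2-D1 is higher in MrgprA3+ than in MrgprA3- libraries, H2-K1, B2m, Tapbp and Tap2 have lower means there, and H2-M11 does not exceed 0.55 FPKM in any MrgprA3+ library.

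The light chain beta-2-microglobulin is needed by every class I heavy chain. B2m (gene ID 12010) stood at 52.5, 73.5, 48.5 and 27.9 FPKM in MrgprA3+ ACD libraries, against 69.3, 53.6, 65.3, 78.3 and 56.4 FPKM in MrgprA3- ACD libraries. In control mice it stood at 36.1, 40.2, 45.4, 51.0 and 79.8 FPKM in MrgprA3+ libraries, against 72.4, 79.5, 79.9, 76.4 and 89.4 FPKM in MrgprA3- libraries. MrgprA3+ control replicate 5 alone reached the MrgprA3- control range. B2m was lower in control mice (log2 difference -0.70, SE 0.20, adjusted p = 0.0122 by limma), a call that held under all 7 alternatives and without each of 10 libraries. In ACD mice the difference was -0.41 (SE 0.21, adjusted p = 0.176), and it passed without MrgprA3+ ACD replicate 2, the highest library of its group (-0.61, adjusted p = 0.0443).

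Of the genes of peptide loading and transport, Tapbp and Tap2 were lower in MrgprA3+ neurons of control mice, and Tap1 did not pass. Tapbp (gene ID 21356), which encodes tapasin, stood at 61.6, 47.0, 57.7 and 60.0 FPKM in MrgprA3+ ACD libraries, against 65.2, 76.1, 73.9, 62.7 and 64.5 FPKM in MrgprA3- ACD libraries. In control mice its levels were 44.1, 42.1, 26.5, 61.3 and 55.0 FPKM in MrgprA3+ libraries, against 61.8, 64.9, 65.2, 66.7 and 64.3 FPKM in MrgprA3- libraries. The populations did not overlap in either treatment. Tapbp was lower in control mice (log2 difference -0.54, SE 0.15, adjusted p = 0.0116 by limma), although median-ratio rescaling ended the call (-0.43, adjusted p = 0.0594). In ACD mice the difference was -0.28 (SE 0.16, adjusted p = 0.246). Tap2 (gene ID 21355), one chain of the peptide pump, stood at 13.7, 7.50, 5.29 and 7.09 FPKM in MrgprA3+ ACD libraries, against 12.6, 15.3, 14.5, 12.0 and 12.6 FPKM in MrgprA3- ACD libraries. In control mice Tap2 stood at 4.26, 15.3, 5.12, 6.15 and 8.07 FPKM in MrgprA3+ libraries, against 13.2, 12.5, 13.2, 14.5 and 14.1 FPKM in MrgprA3- libraries. One MrgprA3+ library in each treatment, replicate 1 in ACD mice and replicate 2 in control mice, reached the MrgprA3- range, and the others lay below it. Tap2 was lower in control mice (log2 difference -0.85, SE 0.25, adjusted p = 0.0137), a call that held under all 7 alternatives and without each of 10 libraries, and the difference in ACD mice was -0.68 (SE 0.26, adjusted p = 0.0656), which passed without MrgprA3+ ACD replicate 1 (-0.92, adjusted p = 0.0158). Tap1, the other chain of the pump, lay at 2.39, 5.18, 2.81 and 3.48 FPKM in MrgprA3+ ACD libraries, against 5.60, 7.35, 2.83, 3.42 and 5.66 FPKM in MrgprA3- ACD libraries. In control mice Tap1 lay at 0.92, 0.03, 5.18, 7.76 and 3.52 FPKM in MrgprA3+ libraries, against 3.76, 4.38, 3.38, 1.68 and 5.34 FPKM in MrgprA3- libraries. The MrgprA3+ control libraries spanned the widest range of the 4 groups for Tap1, and neither difference passed (-0.40, SE 0.45 in ACD mice and -0.40, SE 0.42 in control mice).

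The immunoproteasome subunits, which replace their constitutive counterparts and change which peptides the proteasome yields, did not pass in either comparison. Psmb8 lay at 29.9, 21.5, 22.9 and 10.8 FPKM in MrgprA3+ ACD libraries, against 19.5, 21.3, 23.7, 22.8 and 18.7 FPKM in MrgprA3- ACD libraries. In control mice Psmb8 lay at 22.1, 17.6, 23.7, 44.9 and 20.1 FPKM in MrgprA3+ libraries, against 17.6, 18.7, 16.5, 20.4 and 23.0 FPKM in MrgprA3- libraries. These ranges overlapped throughout, with log2 differences of -0.07 (SE 0.24) in ACD mice and 0.33 (SE 0.23) in control mice. Psmb10 averaged 36.7 ± 5.11 FPKM in MrgprA3+ ACD libraries (SD, n = 4), against 36.1 ± 6.05 in MrgprA3- ACD libraries (n = 5), and 44.5 ± 14.0 in MrgprA3+ control libraries (n = 5), against 36.4 ± 2.78 in MrgprA3- control libraries (n = 5). Psmb9 was scarcer, between 0.43 and 3.70 FPKM in MrgprA3+ ACD libraries, against 1.30 to 3.47 FPKM in MrgprA3- ACD libraries, and between 0.40 and 6.36 FPKM in MrgprA3+ control libraries, against 1.65 to 3.52 FPKM in MrgprA3- control libraries. Per kilobase, Psmb8 and Psmb10 transcripts thus exceeded Psmb9 in every library.

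Among 28 nonclassical class I genes 8 were tested. H2-M11 (gene ID 224754), of an M family described in the mouse in sensory neurons of the vomeronasal organ, differed more than any other tested gene of the set. In ACD mice it was listed at 0, 0.07, 0 and 0.55 FPKM in MrgprA3+ libraries, against 2.07, 3.01, 3.45, 4.55 and 4.23 FPKM in MrgprA3- libraries. In control mice it was listed at 0.06, 0, 0, 0 and 0.15 FPKM in MrgprA3+ libraries, against 2.06, 3.08, 1.79, 2.72 and 4.05 FPKM in MrgprA3- libraries. No library of one population reached the range of the other. The log2 difference was -1.94 (SE 0.23, adjusted p = 1.66e-06 by limma) in ACD mice and -1.81 (SE 0.22, adjusted p = 1.23e-06) in control mice. Both calls held under every alternative run and without each single library. H2-M11 entered the test through MrgprA3- libraries alone, so these p-values only describe the separation. One fragment of this transcript was worth about 0.0473 FPKM in the deepest library and 0.0951 FPKM in the shallowest. The values of 0.06, 0.07 and 0.15 thus amount to a few fragments at most. No 50-base stretch of H2-M11 occurs in another gene's transcripts. The other genes of its family were near 0: H2-M1, H2-M9, H2-M10.1, H2-M10.3, H2-M10.4, H2-M10.5 and H2-M10.6 reached at most 0.48 FPKM in any library. H2-M10.2 was the exception, at a mean of 2.33 ± 1.69 FPKM in MrgprA3+ ACD libraries (SD, n = 4), against 1.51 ± 0.396 in MrgprA3- ACD libraries (n = 5), and 2.26 ± 1.77 in MrgprA3+ control libraries (n = 5), against 0.898 ± 0.434 in MrgprA3- control libraries (n = 5). Its differences did not pass (0.29, SE 0.36 in ACD mice and 0.63, SE 0.34 in control mice), except in control mice without MrgprA3+ control replicate 4 (0.94, adjusted p = 0.0292) and under quantile normalization (1.07, adjusted p = 0.0125).

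H2-T22 (gene ID 15039), known as a ligand of gamma delta T cells, stood at 5.48, 0.49, 4.21 and 3.93 FPKM in MrgprA3+ ACD libraries, against 10.7, 11.9, 12.0, 8.61 and 12.2 FPKM in MrgprA3- ACD libraries. In control mice its levels were 2.75, 6.43, 3.31, 12.5 and 4.75 FPKM in MrgprA3+ libraries, against 7.86, 9.16, 7.83, 7.80 and 10.5 FPKM in MrgprA3- libraries. The populations were apart in ACD mice, and in control mice MrgprA3+ replicate 4 lay above the whole MrgprA3- range. The log2 difference was -1.60 (SE 0.35, adjusted p = 0.00205 by limma) in ACD mice, which held under every alternative run and without each single library, and -0.62 (SE 0.33, adjusted p = 0.176) in control mice, where it passed without MrgprA3+ control replicate 4 (-0.90, adjusted p = 0.0371). The difference between these differences was -0.97 (SE 0.49, unadjusted p = 0.057, adjusted p = 0.994), so the populations were not shown to differ more in one treatment than in the other. H2-T22 shares 31.2% of its 50-base stretches with H2-T10, so the authors' counting could have moved reads between them. H2-T10 itself lay between 0.61 and 2.25 FPKM in MrgprA3+ ACD libraries, against 1.45 to 2.33 FPKM in MrgprA3- ACD libraries, and between 0.95 and 3.16 FPKM in MrgprA3+ control libraries, against 1.03 to 2.30 FPKM in MrgprA3- control libraries.

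The remaining nonclassical genes tested did not pass in either comparison. H2-M3, which presents N-formylated peptides, averaged 15.0 ± 7.93 FPKM in MrgprA3+ ACD libraries (SD, n = 4), against 11.6 ± 0.652 in MrgprA3- ACD libraries (n = 5), and 15.3 ± 4.56 in MrgprA3+ control libraries (n = 5), against 13.7 ± 1.59 in MrgprA3- control libraries (n = 5). H2-T23, the Qa-1 molecule that presents class I leader peptides to natural killer cell receptors, ranged between 0.68 and 4.30 FPKM in MrgprA3+ ACD libraries, against 2.48 to 3.25 FPKM in MrgprA3- ACD libraries. In control mice H2-T23 ranged between 1.90 and 10.6 FPKM in MrgprA3+ libraries, against 1.93 to 4.10 FPKM in MrgprA3- libraries. For both genes the MrgprA3+ range reached above and below the MrgprA3- range in each treatment. H2-T24 lay between 2.20 and 6.31 FPKM over all groups, and H2-Q4 between 0.14 and 1.43 FPKM. H2-Q4, which entered the test through MrgprA3- libraries alone, differed by -0.50 in control mice (SE 0.19, adjusted p = 0.0606), and passed (-0.56 to -0.59, adjusted p = 0.0293 to 0.0476) without MrgprA3+ control replicate 1 or 4 or MrgprA3- control replicate 1 or 4. Of the nonclassical genes that were not tested, H2-Q5 came closest, at up to 1.66 FPKM, with 36.4% of its 50-base stretches shared with other genes. H2-M5 reached 1.09 FPKM in MrgprA3+ ACD replicate 2 and at most 0.11 FPKM elsewhere. The pseudogene H2-K2 and H2-Ke6, a gene of the H2 region that encodes no MHC protein, did not pass either, and 70.5% of the H2-Ke6 stretches also occur in an overlapping gene model.

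Class II chain and invariant chain genes were low in all groups, and H2-Aa and Cd74 were at or near 0 in MrgprA3+ neurons. H2-Aa and Cd74 entered the test through MrgprA3- libraries alone, so their p-values below only describe the separation. H2-Aa (gene ID 14960), which encodes the class II alpha chain of this strain, was listed at 0, 0, 0 and 0.06 FPKM in MrgprA3+ ACD libraries, against 0.25, 3.92, 0.09, 1.41 and 0.66 FPKM in MrgprA3- ACD libraries. In control mice it was listed at 0 in all 5 MrgprA3+ libraries, against 3.25, 1.19, 0.87, 0.86 and 0.25 FPKM in MrgprA3- libraries. The populations did not overlap in either treatment. The log2 difference was -0.93 (SE 0.34, adjusted p = 0.0525 by limma) in ACD mice and -1.07 (SE 0.32, adjusted p = 0.0155) in control mice. Without MrgprA3- control replicate 1 the control call ended (-0.81, adjusted p = 0.0556), as it did under quantile normalization (-0.59, adjusted p = 0.194). On the same scale with a pseudocount of 0.1, H2-Aa passed in ACD mice (-2.81, adjusted p = 0.00984), as it did with a replicate block (-1.13, adjusted p = 0.0200). It also passed there without MrgprA3- ACD replicate 1 (-1.08, adjusted p = 0.0338) or MrgprA3- ACD replicate 3 (-1.13, adjusted p = 0.0213).

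Cd74 (gene ID 16149), the invariant chain, followed H2-Aa. Its levels were 0.22, 0.28, 0.49 and 0.30 FPKM in MrgprA3+ ACD libraries, against 0.60, 5.64, 1.08, 2.39 and 1.14 FPKM in MrgprA3- ACD libraries. In control mice they were 0, 0.08, 0, 0 and 0.33 FPKM in MrgprA3+ libraries, against 3.01, 2.60, 0.93, 1.31 and 0.83 FPKM in MrgprA3- libraries. Again no MrgprA3+ library reached the MrgprA3- range. Cd74 was lower in both, with a log2 difference of -1.07 (SE 0.32, adjusted p = 0.0180 by limma) in ACD mice and -1.27 (SE 0.30, adjusted p = 0.00275) in control mice. Quantile normalization ended both calls (-0.53, adjusted p = 0.315 in ACD mice and -0.71, adjusted p = 0.123 in control mice), and leaving out MrgprA3- ACD replicate 2 ended the call in ACD mice (-0.75, adjusted p = 0.0568). H2-Eb1 (gene ID 14969), a class II beta chain whose alpha partner is not made in this strain, stood at 1.21, 1.82, 0.77 and 0.66 FPKM in MrgprA3+ ACD libraries, against 1.92, 2.31, 1.21, 1.74 and 2.71 FPKM in MrgprA3- ACD libraries. In control mice H2-Eb1 stood at 1.08, 0.17, 0.29, 2.12 and 0.73 FPKM in MrgprA3+ libraries, against 2.01, 2.18, 1.63, 1.72 and 2.10 FPKM in MrgprA3- libraries. The ranges overlapped in both. The difference was -0.50 (SE 0.26, adjusted p = 0.180) in ACD mice and -0.73 (SE 0.25, adjusted p = 0.0318) in control mice, and the control call was lost under 4 of 6 alternatives (adjusted p up to 0.496, under quantile normalization) and without 5 of 10 libraries, namely MrgprA3+ control replicates 2 (0.0910) and 3 (0.0800) and MrgprA3- control replicates 1 (0.0556), 2 (0.0698) and 5 (0.0641).

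H2-Ab1 (gene ID 14961), the beta chain that pairs with the H2-Aa product, did not follow H2-Aa. It stood at 0.60, 0.23, 2.39 and 0.42 FPKM in MrgprA3+ ACD libraries, against 1.41, 4.17, 0.58, 1.48 and 1.30 FPKM in MrgprA3- ACD libraries. In control mice its levels were 4.12, 2.69, 1.61, 5.59 and 0.06 FPKM in MrgprA3+ libraries, against 4.85, 1.46, 1.63, 1.19 and 0.61 FPKM in MrgprA3- libraries. So 4 of the 5 MrgprA3+ control libraries held more than 1 FPKM of H2-Ab1 while H2-Aa was listed at 0 in all 5. The log2 difference between the populations was -0.55 (SE 0.45, adjusted p = 0.414) in ACD mice and 0.27 (SE 0.43, adjusted p = 0.679) in control mice. No 50-base stretch of H2-Ab1 occurs in another gene's transcripts. H2-Eb2, the fourth class II chain, reached at most 0.04 FPKM.

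**Figure D3:**
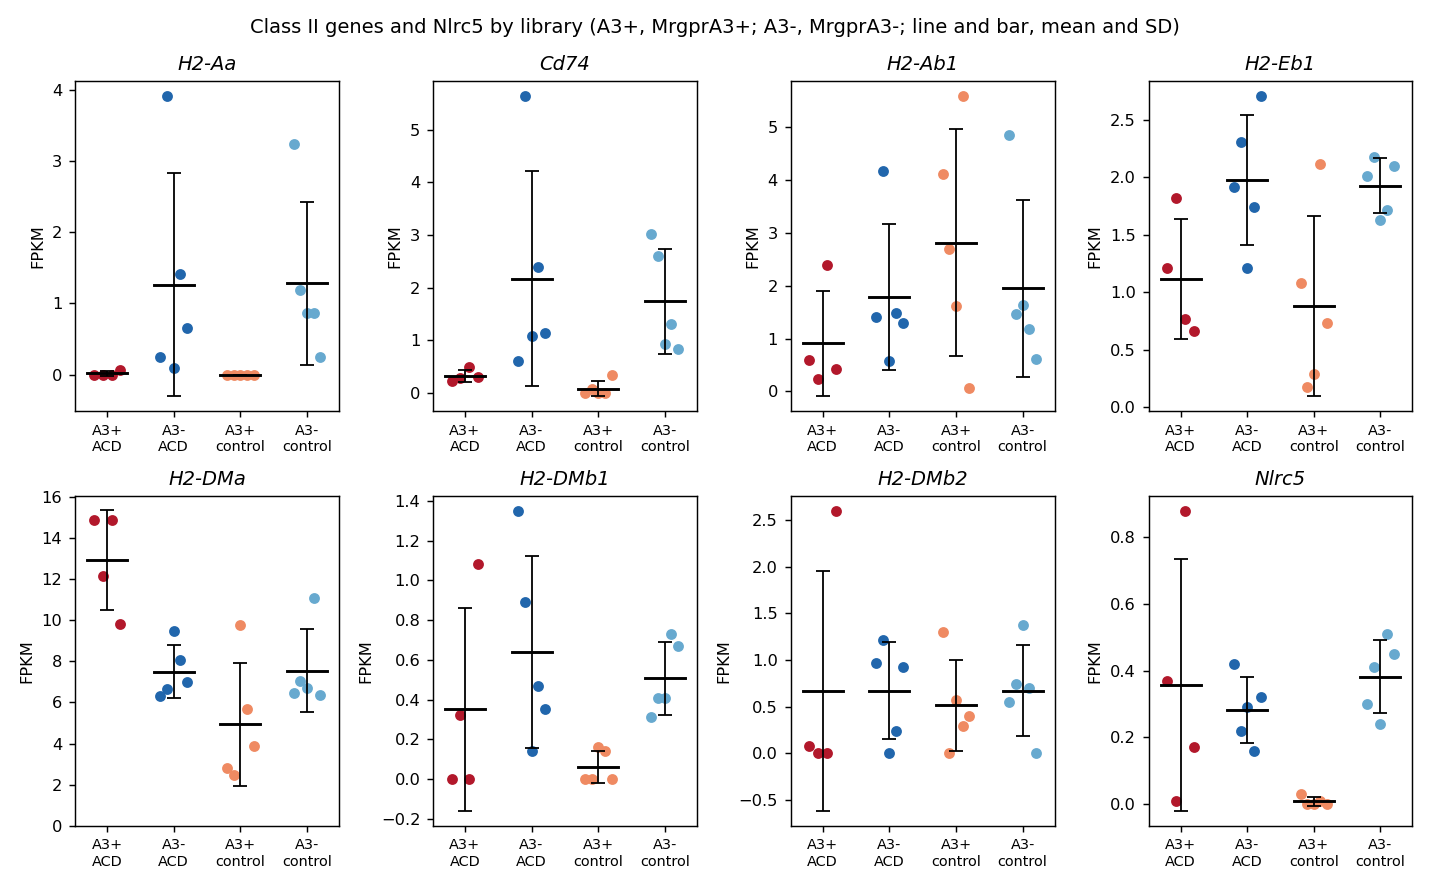
FPKM of 7 class II pathway genes and Nlrc5 in each library, with the mean and SD of each group (A3+, MrgprA3+; A3-, MrgprA3-). H2-Aa and Cd74 stay at or below 0.49 FPKM in every MrgprA3+ library, H2-Ab1 reaches 5.59 FPKM in MrgprA3+ control libraries, and H2-DMa has its highest mean in MrgprA3+ ACD libraries.

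Some markers of macrophages and other leukocytes were lower in MrgprA3+ neurons, like H2-Aa and Cd74, and others were not. Of 16 such markers 4 were tested. In ACD mice 3 of these were lower in MrgprA3+ neurons and none was higher, against 15.2% and 6.84% of all tested genes. In control mice 2 were lower and 1 was higher, against 18.4% and 8.64% of all tested genes. The lysozyme gene Lyz2 was lower, with a log2 difference of -2.24 (SE 0.47, adjusted p = 0.00139 by limma) in ACD mice and -1.47 (SE 0.45, adjusted p = 0.0171) in control mice. The complement gene C1qb was lower too, at -1.78 (SE 0.40, adjusted p = 0.00211) in ACD mice and -1.16 (SE 0.37, adjusted p = 0.0234) in control mice. The marker that was higher in control mice was Laptm5 (1.12, SE 0.41, adjusted p = 0.0437), at 1.32 to 11.5 FPKM in MrgprA3+ control libraries, against 1.03 to 2.88 FPKM in MrgprA3- control libraries. The summed level of the 16 markers lay between 2.79 and 11.6 FPKM in MrgprA3+ ACD libraries, against 6.48 to 31.8 FPKM in MrgprA3- ACD libraries, and between 5.35 and 12.2 FPKM in MrgprA3+ control libraries, against 6.47 to 18.9 FPKM in MrgprA3- control libraries. Laptm5 made up much of this sum in MrgprA3+ neurons, with a mean of 5.52 of 6.605 FPKM in ACD mice and 6.152 of 9.014 FPKM in control mice. In MrgprA3- neurons its mean was 1.814 of 14.672 FPKM in ACD mice and 1.9 of 10.102 FPKM in control mice. C1qa, Tyrobp and Adgre1 were listed at 0 in every MrgprA3+ library, and Ptprc, the pan-leukocyte marker, did not exceed 0.24 FPKM in any library. Cd68, which was not tested, averaged 0.0925 FPKM in MrgprA3+ ACD libraries, against 0.6 FPKM in MrgprA3- ACD libraries. In control mice Cd68 went the other way, at 1.01 FPKM in MrgprA3+ libraries, against 0.164 FPKM in MrgprA3- libraries. The library with the most H2-Aa and Cd74, MrgprA3- ACD replicate 2, also held the most Lyz2 (13.2 FPKM) and C1qb (7.62 FPKM) of all 19. Among control libraries MrgprA3- replicate 1 was highest in H2-Aa, Cd74 and Lyz2 (7.92 FPKM). Without MrgprA3- ACD replicate 2 the Cd74 call in ACD mice ended, and without MrgprA3- control replicate 1 the H2-Aa call in control mice ended. The Cd74 call in control mice held without each of 10 libraries. The part of leukocyte RNA in the class II levels was not tested.

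**Figure D4:**
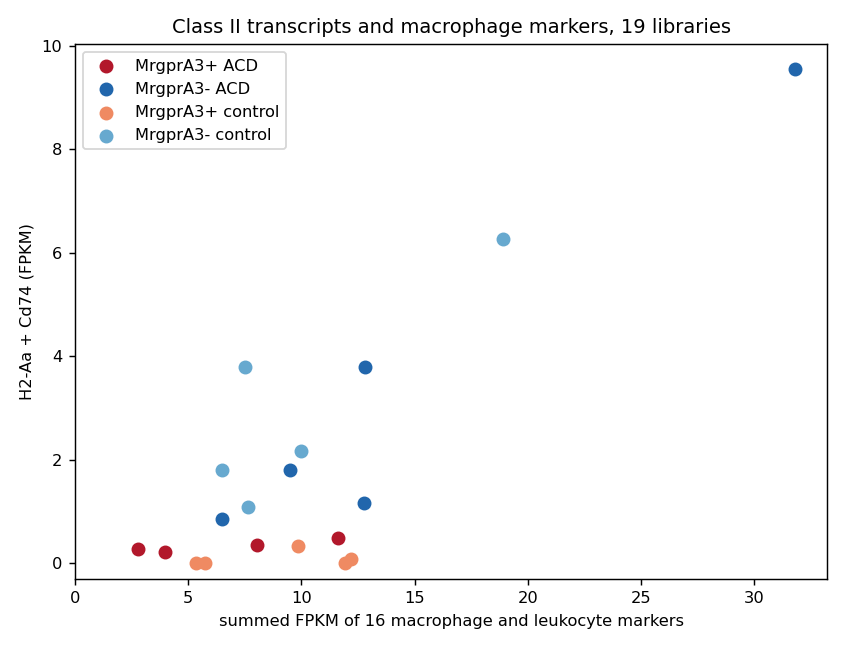
Sum of H2-Aa and Cd74 (FPKM, vertical) against the summed FPKM of 16 macrophage and leukocyte markers (horizontal), one point per library. In MrgprA3+ libraries much of the marker sum is, on average, Laptm5. MrgprA3- ACD replicate 2 (31.8 FPKM of markers, 9.56 FPKM of H2-Aa and Cd74) and MrgprA3- control replicate 1 (18.9 and 6.26 FPKM) stand apart, and the MrgprA3+ libraries stay at or below 0.49 FPKM.

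Some markers of other cells in the ganglion also differed. Over all tested genes 15.2% were lower and 6.84% higher in ACD mice, and 18.4% were lower and 8.64% higher in control mice. Of 8 satellite glia markers tested 2 were lower in MrgprA3+ neurons of ACD mice and 5 were lower in control mice, with none higher. Of 6 Schwann cell markers 3 were lower and 1 was higher in ACD mice, and 4 were lower and 1 was higher in control mice. The higher one in control mice was Pmp22 (0.45, adjusted p = 6.49e-05 by limma). Pmp22 averaged 1333 FPKM in MrgprA3+ ACD libraries, against 874 FPKM in MrgprA3- ACD libraries, and 1267 against 929 FPKM in control mice. Of 8 endothelial markers only Ly6c1 was tested, and it was lower in both (-0.97, adjusted p = 0.0377 in ACD mice and -1.27, adjusted p = 0.00375 in control mice, by limma). The untested ones did not all go one way in ACD mice. Cldn5 averaged 0.8825 FPKM in MrgprA3+ ACD libraries, against 0.21 FPKM in MrgprA3- ACD libraries, and Pecam1 0.105 against 0.65 FPKM. The part of satellite glia, Schwann cells and endothelium in the levels of B2m, H2-K1, Tap2 and Tapbp was not tested. Of 10 pan-neuronal markers 4 were higher and 2 were lower in each treatment. Of 3 dendritic, B and T cell markers tested 1 was higher, 1 was lower and 1 did not pass in each treatment. The lower one was Flt3, a growth factor receptor of dendritic cell precursors, at -0.92 (SE 0.28, adjusted p = 0.0211) in ACD mice and -0.97 (SE 0.27, adjusted p = 0.00887) in control mice. Cd8a, whose product on T cells binds class I molecules, was higher in MrgprA3+ neurons, at 3.51 to 6.21 FPKM in MrgprA3+ ACD libraries, against 0.06 to 0.16 FPKM in MrgprA3- ACD libraries, and at 3.08 to 9.05 FPKM in MrgprA3+ control libraries, against 0 to 0.22 FPKM in MrgprA3- control libraries. Its log2 difference was 2.34 (SE 0.25, adjusted p = 3.42e-07) in ACD mice and 2.46 (SE 0.23, adjusted p = 4.19e-08) in control mice.

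The peptide exchange factor H2-DM is a dimer of an alpha chain and a beta chain, and its genes did not share a pattern. H2-DMa (gene ID 14998), the alpha chain, stood at 14.9, 12.2, 14.9 and 9.81 FPKM in MrgprA3+ ACD libraries, against 6.31, 6.63, 9.48, 8.05 and 7.01 FPKM in MrgprA3- ACD libraries. In control mice its levels were 2.82, 2.48, 9.76, 5.68 and 3.89 FPKM in MrgprA3+ libraries, against 6.47, 7.06, 6.69, 11.1 and 6.38 FPKM in MrgprA3- libraries. All 4 MrgprA3+ ACD libraries lay above all MrgprA3- ACD libraries, and 4 of the 5 MrgprA3+ control libraries lay below all MrgprA3- control libraries. Neither population difference passed, at 0.71 (SE 0.27, adjusted p = 0.0624 by limma) in ACD mice and -0.63 (SE 0.25, adjusted p = 0.0695) in control mice. Each was called under another choice: the first under median-ratio rescaling (0.80, adjusted p = 0.0349), quantile normalization (0.79, adjusted p = 0.0326) and a fit of the compared groups alone (adjusted p = 0.0178) and without MrgprA3+ ACD replicate 5 (0.82, adjusted p = 0.0427), the second without MrgprA3+ control replicate 3 (-0.88, adjusted p = 0.00564). The beta chain genes were far lower. H2-DMb1 was listed at 0, 0.32, 0 and 1.08 FPKM in MrgprA3+ ACD libraries, against 1.35, 0.89, 0.14, 0.47 and 0.35 FPKM in MrgprA3- ACD libraries. In control mice H2-DMb1 lay between 0 and 0.16 FPKM in MrgprA3+ libraries, against 0.31 to 0.73 FPKM in MrgprA3- libraries. H2-DMb2 averaged 0.670 ± 1.29 FPKM in MrgprA3+ ACD libraries (SD, n = 4), against 0.668 ± 0.519 in MrgprA3- ACD libraries (n = 5), and 0.512 ± 0.487 in MrgprA3+ control libraries (n = 5), against 0.672 ± 0.490 in MrgprA3- control libraries (n = 5). Per kilobase, H2-DMa exceeded the sum of both beta chain genes in all 19 libraries, and H2-DMb1 and H2-DMb2 share 22.7% of the H2-DMb1 stretches of 50 bases.

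The transactivators were below the filter. Nlrc5 was listed at 0.37, 0.01, 0.88 and 0.17 FPKM in MrgprA3+ ACD libraries, against 0.42, 0.22, 0.29, 0.16 and 0.32 FPKM in MrgprA3- ACD libraries. In control mice it was listed at 0.03, 0, 0, 0.01 and 0 FPKM in MrgprA3+ libraries, against 0.30, 0.41, 0.24, 0.51 and 0.45 FPKM in MrgprA3- libraries. The control groups were apart and the ACD groups overlapped. An exact two-sided permutation test of Nlrc5 gave p = 0.818 in ACD mice and p = 0.00794 in control mice, the smallest p that 5 against 5 libraries allow. Adjusted over the 5 single-gene tests run, these were 0.818 in ACD mice and 0.0397 in control mice. Nlrc5 was chosen with its values known, which the adjustment does not cover, so these p-values only describe the separation. The 5 tests included H2-DMa between ACD and control mice in MrgprA3+ neurons, chosen likewise (exact p = 0.0159, adjusted 0.0397). Ciita was listed at 0 in all 4 MrgprA3+ ACD libraries, against 0 to 0.19 FPKM in MrgprA3- ACD libraries, and at 0 to 0.01 FPKM in MrgprA3+ control libraries, against 0 to 0.05 FPKM in MrgprA3- control libraries (exact p = 0.0873 in ACD mice and 0.286 in control mice).

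The second comparison asked what dermatitis changed within each population. None of the 25 genes passed in MrgprA3+ neurons, where 0% of all tested genes passed, and none passed in MrgprA3- neurons, where 0.108% did. The median log2 difference over the 25 genes was 0.02 in MrgprA3+ neurons, against -0.01 over all tested genes, and -0.01 in MrgprA3- neurons, against -0.02 over all tested genes. At an unadjusted p below 0.05 by limma stood 1 of the 25 genes in MrgprA3+ neurons (4%, against 5.54% of all tested genes) and 3 in MrgprA3- neurons (12%, against 8.44%). The single gene in MrgprA3+ neurons was H2-DMa, with a log2 difference of 1.34 (SE 0.35, unadjusted p = 0.0013, adjusted p = 0.748), the farthest from 0 of the 25. Every MrgprA3+ ACD library lay above every MrgprA3+ control library, although the nearest pair, at 9.81 and 9.76 FPKM, nearly met. When all 19 libraries shared one estimate of the spread, H2-DMa passed (adjusted p = 0.0258), and it was the 1 gene of the 25 that did. In MrgprA3- neurons the difference was 0.01 (SE 0.16), and the difference between the populations in the effect of ACD was 1.34 (SE 0.37, unadjusted p = 0.00145, adjusted p = 0.994). In that last comparison 0 of the 25 genes and 0% of all tested genes passed.

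**Figure D5:**
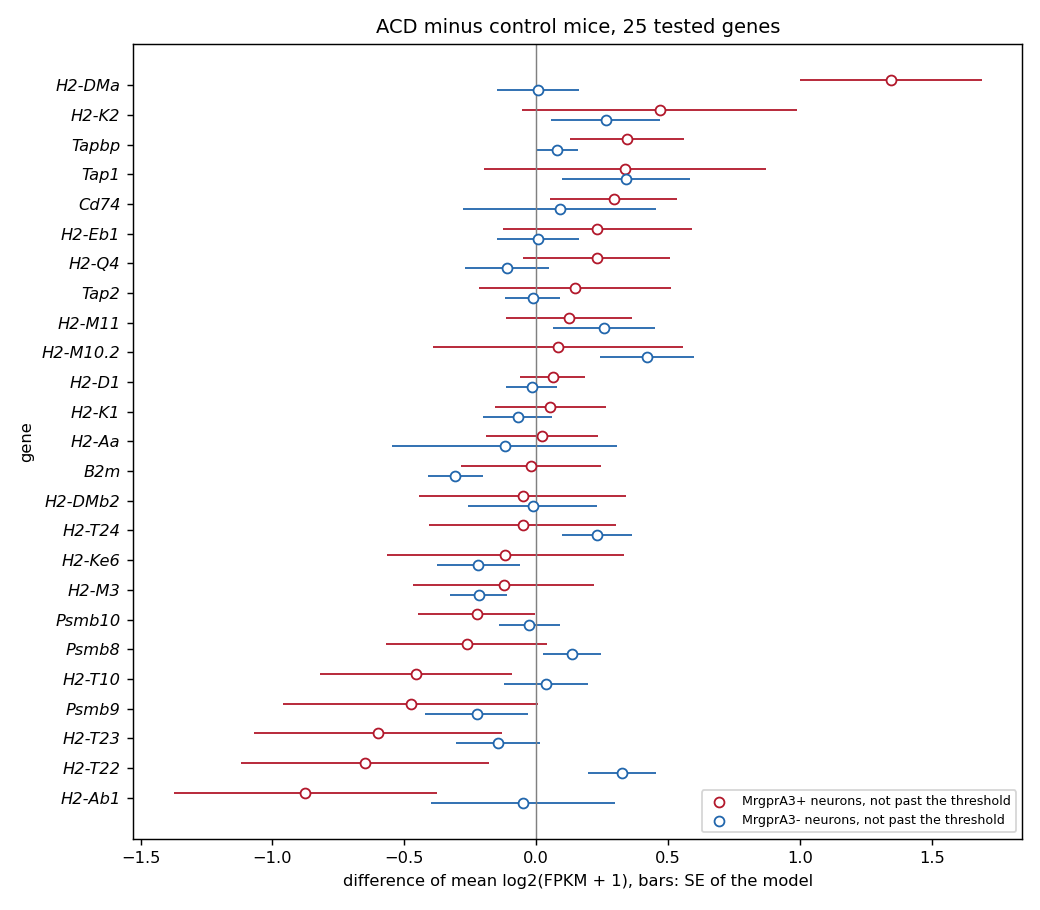
Difference of mean log2(FPKM + 1), ACD minus control mice, for the 25 tested genes in MrgprA3+ neurons (red) and MrgprA3- neurons (blue), with the standard error of the model. H2-DMa in MrgprA3+ neurons lies at 1.34, all symbols are open since no gene passed, and the bars of MrgprA3+ neurons are mostly longer.

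In MrgprA3- neurons the 3 genes with an unadjusted p below 0.05 were B2m (-0.31, SE 0.10, unadjusted p = 0.00907, adjusted p = 0.494 by limma), H2-T22 (0.33, SE 0.13, unadjusted p = 0.0224, adjusted p = 0.511) and H2-M10.2 (0.42, SE 0.18, unadjusted p = 0.0314, adjusted p = 0.533). H2-M3 was lower in every MrgprA3- ACD library (10.7 to 12.2 FPKM) than in every MrgprA3- control library (12.6 to 16.4 FPKM), but did not pass (-0.22, SE 0.11, adjusted p = 0.606). The class I heavy chains differed little: H2-D1 by 0.06 (SE 0.12) in MrgprA3+ neurons and by -0.02 (SE 0.10) in MrgprA3- neurons, and H2-K1 by 0.05 (SE 0.21) in MrgprA3+ neurons and by -0.07 (SE 0.13) in MrgprA3- neurons. Cd74 differed by 0.29 (SE 0.24) in MrgprA3+ neurons and by 0.09 (SE 0.36) in MrgprA3- neurons. H2-Ab1 lay farthest below 0 in MrgprA3+ neurons, at -0.87 (SE 0.50, adjusted p = 0.885), with overlapping ranges.

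Other genes of the pathway were read for context, beside the 6.84% higher and 15.2% lower of all tested genes in ACD mice and the 8.64% higher and 18.4% lower in control mice; the counts in these short lists are a description. Of 12 further genes of class I processing, 3 were lower in ACD mice and none higher (Psme1, a proteasome activator subunit, -0.85, and the chaperones Calr, -0.54, and Canx, -0.36), and in control mice 2 were lower (Tapbpl, a tapasin relative, -0.88, and Calr, -0.43) and 1 higher (Psmb6, a constitutive proteasome subunit, 0.37). The 3 class I-like genes tested outside H2 were lower in MrgprA3+ neurons in both: Cd1d1, which presents lipids (log2 difference -1.79 in ACD mice and -2.03 in control mice), Fcgrt, the neonatal Fc receptor (-1.50 in ACD mice and -1.72 in control mice), and the iron regulator Hfe (-1.12 in ACD mice and -1.11 in control mice). Cd1d1 averaged 1.21 FPKM in MrgprA3+ ACD libraries, against 6.26 in MrgprA3- ACD libraries, and 0.284 FPKM in MrgprA3+ control libraries, against 4.04 in MrgprA3- control libraries. Of 10 genes of class II processing and regulation, 1 was higher (the protease gene Ctsb, 0.31) and 1 lower (the protease gene Lgmn, -0.75) in ACD mice, and 1 was higher (Ctsb, 0.27) and 2 were lower (Lgmn, -0.88, and the transcription factor gene Creb1, -0.77) in control mice. None of these lists held a gene that passed between ACD and control mice in either population.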

How the data were processed

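Polyadenylated RNA of sorted neurons was sequenced, per the labels' protocols, and the authors deposited FPKM values, per the file headers, in 1 table with each library matched by its column header. Reads were aligned with Bowtie2 to mm9, per the submitters' processing notes; the annotation and quantifier were not given in the sources used here. No scaling between libraries was added. Depth was read from the step between low FPKM values in 1080 genes with GRCm38 transcript lengths (73.4% to 81.4% of low values within 0.2 of a whole step) and is approximate.

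Genes reaching 1 FPKM in 4 or more of the 19 libraries were tested on log2(FPKM + 1), which understates changes of low genes, with limma 3.58.1 (lmFit, eBayes with trend and robust) in R 4.3.3; p-values are two-sided, adjusted over 11996 genes. Population contrasts and the difference of ACD effects used all 19 libraries; ACD contrasts used each population alone. Scripts were tested on simulated data. Per-library values are given for genes past the threshold and for a set of class I, class II and regulator genes named by rule, others by range or mean. The genes, lists and tests were chosen with earlier results of these data known. Equal replicate numbers were treated as unpaired. Alternatives were another pseudocount, 2 other filters, 2 rescalings, a replicate block, other fit sets and single libraries left out. Fragments shared between genes were gauged as 50-base stretches of GRCm38 transcripts; no mm9 coordinates were used.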

Additional observations from a re-analysis of the deposited data

Results flagged for a closer look

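By Dixon's gap criterion chance sets 1 library apart in about 1 in 20 groups of normally spread values. Groups near 0 are not so spread, and where the others are 0 any fragment sets a library apart. The count given here can therefore not be read against that rate. In 9 of the 100 groups of values looked at (25 tested genes in 4 groups of libraries), 1 library stood apart from the rest. In MrgprA3+ ACD libraries these were all replicate 5: H2-DMb2 at 2.6 FPKM (others 0 to 0.08), H2-M11 at 0.55 FPKM (others 0 to 0.07), H2-Aa at 0.06 FPKM (others 0), and Psmb10 at 29.14 FPKM (others 38.4 to 40.0). In MrgprA3- ACD libraries H2-Ke6 stood at 1.39 FPKM in replicate 5 (others 0.76 to 0.90). In MrgprA3+ control libraries Cd74 stood at 0.33 FPKM in replicate 5 (others 0 to 0.08), and C1qb was also highest there among MrgprA3+ libraries, at 3.61 FPKM. In MrgprA3- control libraries H2-DMa stood at 11.1 FPKM in replicate 4 (others 6.38 to 7.06), H2-T23 at 1.93 FPKM in replicate 4 (others 3.60 to 4.10), and H2-M3 at 16.43 FPKM in replicate 1 (others 12.6 to 13.5). The part of any of these in the comparisons was not tested beyond leaving each library out in turn.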

How the results depend on the processing

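The count of genes past the threshold between the populations was 9 in control mice and 4 in ACD mice, and moved by over 1.5 times under the stricter filter (5 FPKM in at least 4 libraries), to 5 of 12 genes tested in control mice and 2 of 12 in ACD mice, with fewer genes tested by construction; over all genes under that filter 2394 of 8105 passed in control mice and 1961 of 8105 in ACD mice. Leaving out 1 library at a time gave 7 to 11 in control mice and 3 to 6 in ACD mice. Between ACD and control mice the count was 0 under every alternative and without each library, except in MrgprA3+ neurons when all 19 libraries shared one spread, where 1 gene, H2-DMa, passed; MrgprA3+ libraries scatter more than that shared spread. For the difference of ACD effects the count was 0 throughout. No direction of a called gene turned round. Median-ratio rescaling moved the median of all genes to -0.04 in both population comparisons, and quantile normalization to 0.04 in control mice and 0.03 in ACD mice. A fit with a replicate block called 8 genes in control mice, without H2-Eb1 (-0.73, adjusted p = 0.0509), and 5 in ACD mice, with H2-Aa added (-1.13, adjusted p = 0.0200); it changed no other call of the 25 genes. The correlation of the deviations of same-numbered libraries was above 0.1 in 1 of 5 pairs in control mice and 3 of 4 in ACD mice. A library's best match was its own number in 2 of 5 pairs in control mice and 3 of 4 in ACD mice. This check does not settle whether equal numbers mark the same mouse. The block was left out of the main fit because the labels do not say so. Values under 1 FPKM rest on few fragments, which limits H2-M11, H2-Aa, Cd74, Nlrc5 and Ciita.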
